A study of Mus musculus with 8 samples.

Results

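The window described here spans chr2:85000000-89999999 of the mouse genome (build mm9) and was chosen as a silent cluster of olfactory receptor genes. Its members are all hotspots, that is, stretches of enriched sequencing tags, that start inside the window in any of 6 deposited lists. They numbered 914 of 820608 hotspots in all, and after merging every pair that shared at least 1 bp they formed 787 of 532751 regions. They were set beside the 3464 hotspots (2187 merged regions) of a pair of 5 Mb flanks, chr2:80000000-84999999 and chr2:90500000-95499999. The study mapped chromatin remodelers by chromatin immunoprecipitation and sequencing in the untreated 3134 line, a mouse mammary epithelial cell line. The titles and antibody labels give the assay, whereas the shared extraction text describes DNase I digestion in lines with dominant-negative remodelers and no immunoprecipitation. Each antibody, against Brg1 (a monoclonal), CHD4 or Snf2h, was used in 2 libraries, and the 2 DNA inputs were left out. The antibody is the only labelled difference between the 6 libraries, and the labels do not say whether paired libraries came from separate cultures, so their spread may be technical.

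Chromatin remodelers use ATP to slide, evict or space nucleosomes. Brg1 is an ATPase of the SWI/SNF complexes, which move and eject nucleosomes at promoters and enhancers, CHD4 is the ATPase of the NuRD complex, which also carries histone deacetylases, and Snf2h is the ATPase of the ISWI complexes, which space nucleosomes. Olfactory receptors are odour-binding G protein-coupled receptors of the largest gene family in mammals. They lie in clusters of many genes, are chosen for expression in olfactory sensory neurons, and are kept silent in most other tissues. No expression was measured in these files, so the silence of the cluster in 3134 cells was not tested.

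In the RefSeq annotation of a later build (GRCm38.p6), used only for names and order, chromosome 2 carried 287 protein-coding genes with an Olfr symbol. Of these, 222 lay in a row between Lrrc55 and Ptprj, a receptor tyrosine phosphatase, interrupted by 3 other protein-coding genes. The row began with 6 receptors from Olfr987 to Olfr995, passed the fatty acid desaturase gene Fads2b, continued with 93 receptors from Olfr996 to Olfr1126, passed Pramel7 and Pramel6, and ended with 123 receptors up to Olfr1274. Positions of these genes in mm9 were not used here, so no hotspot was assigned to a gene and no sequence is given. The limits of the window are round coordinates, and where the receptor row begins and ends relative to them was not checked. Below, cluster means the window, and its edges are those of the window.

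The lists differed in length before any region was considered. Brg1 held 115361 and 260036 hotspots in replicates 1 and 2, CHD4 39797 and 293135, and Snf2h 32310 and 79969. Replicates 2 of Brg1 and CHD4 stand apart from the rest, since their lists reach down to a Z score of 2, whereas the lowest Z score is 9.49 in Brg1 replicate 1, 8.77 in CHD4 replicate 1, and 8.60 and 8.495 in the Snf2h lists. Density, covered length, width and height were therefore compared between window and flanks inside the same list, and heights are ranks within a list. Overlap shares, merged regions and replication also depend on the lengths and thresholds of the other lists. The number of tags behind each hotspot is not in the lists, so depth is unknown.

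All 3 remodelers had fewer hotspots in the cluster than in the flanks, and the decrease was seen in 6 of 6 libraries. Brg1 had 135 and 224 hotspots in the window in replicates 1 and 2, or 27.0 and 44.8 per Mb, beside 47.2 and 115.6 per Mb in the flanks. CHD4 had 31 and 349, or 6.20 and 69.8 per Mb, beside 16.9 and 120.1 per Mb. For Snf2h the window held 59 and 116, or 11.8 and 23.2 per Mb, beside 13.9 and 32.7 per Mb. The groups of lists overlap in absolute density because the lists differ in length, but each library was lower in the window than in its own flanks. On the log2 scale, the ratio of densities averaged -0.86 ± 0.48 (SD, n = 6 libraries), so the cluster held 55.3% of the flanks' density. An exact sign-flip permutation test over the libraries gave a two-sided p of 0.03125, the smallest that 6 libraries allow, and the same value after Benjamini-Hochberg adjustment over 6 tests of this kind.

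**Figure D1:**
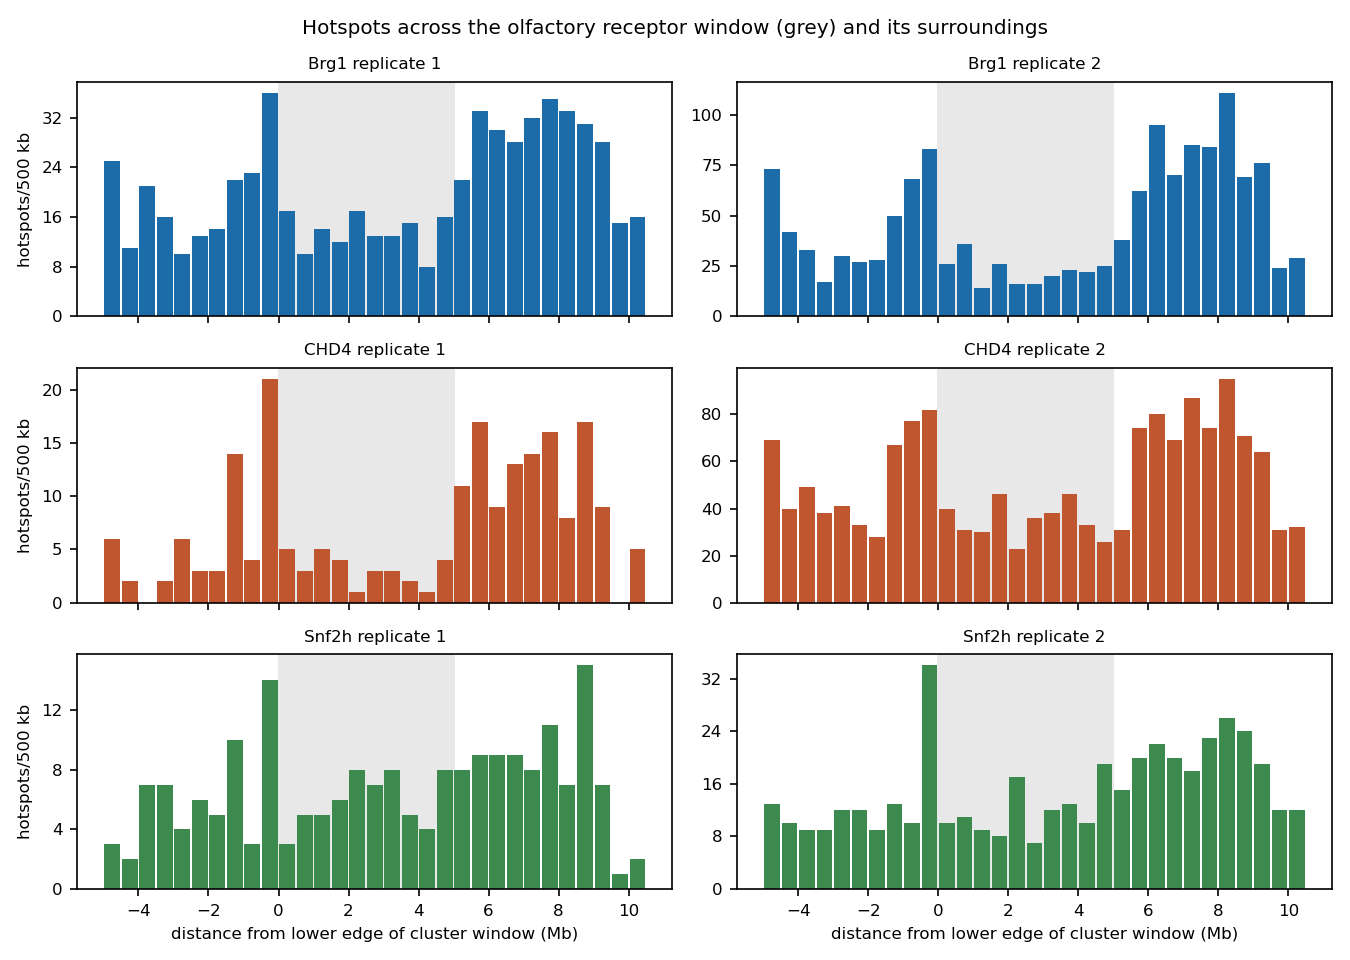
Hotspots per 500 kb bin (y axis, a separate scale for each library) against distance from the lower edge of the window in Mb (x axis), with the cluster shaded grey. Counts drop at the lower edge in all 6 panels, the first Snf2h library climbs back to 8 per bin inside the window, and part of the lower flank is as low as the cluster.

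The size of the decrease varied between libraries and between antibodies. The cluster had 57.2% and 38.8% of the flanks' Brg1 density, 36.7% and 58.1% of their CHD4 density, and 84.9% and 70.9% of their Snf2h density. Both Snf2h libraries thus kept more of their flank density than any Brg1 or CHD4 library. Antibody means of the log2 ratio were -1.09 (Brg1), -1.11 (CHD4) and -0.37 (Snf2h), and the 2 libraries of an antibody differed by 0.56, 0.66 and 0.26. The range between antibody means was 0.749. Their variance gave p = 0.333 in an exact one-sided enumeration of the 15 ways to pair 6 libraries, a design whose smallest p is 0.0667. A difference between remodelers was therefore not shown. With only hotspots at or above a Z score of 9.49, which every list reaches, Brg1 stood at 57.2% and 33.1%, CHD4 at 26.0% and 22.1%, and Snf2h at 81.6% and 68.8%. The CHD4 shares rest on 19 and 15 cluster hotspots. The cut is the lowest Z score of Brg1 replicate 1, so that list was whole. How the Z score is scaled in each list is not stated. At this cut the range rose to 1.64, and the variance gave the smallest p this exact enumeration can give, 0.0667.

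Less of the cluster was covered by hotspots, and the hotspots were narrower. Brg1 hotspots covered 0.787% and 1.64% of the window and 2.07% and 6.08% of the flanks. CHD4 covered 0.220% and 2.64% against 0.836% and 5.73%, and Snf2h 0.400% and 0.846% against 0.565% and 1.65%. Covered length was lower in 6 of 6 libraries, with a mean log2 ratio of -1.30 ± 0.55 (SD, n = 6; exact sign-flip permutation p = 0.03125, adjusted 0.03125). Median width in the cluster ranged from 261 bp in Brg1 replicate 1 to 369 bp in CHD4 replicate 2, and in the flanks from 376 to 478 bp. The mean log2 ratio of widths was -0.36 ± 0.16 (SD, n = 6; exact sign-flip permutation p = 0.03125, adjusted 0.03125). The shortest width, 252 bp, was held by 67 of 135 and 47 of 224 cluster hotspots of Brg1, beside 76 of 472 and 166 of 1156 in the flanks. For CHD4 it was 8 of 31 and 66 of 349, beside 14 of 169 and 211 of 1201, and for Snf2h 17 of 59 and 16 of 116, beside 17 of 139 and 35 of 327. The shares in CHD4 replicate 2 were close to each other, and that of Brg1 replicate 1 stood furthest above its flanks.

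The hotspots that were present in the cluster were low. Height is given as the percentile of a hotspot's maximum tag density within its own list, where 50 is the middle of the list. Brg1 hotspots of the cluster had median percentiles of 6.45 and 18.7 in replicates 1 and 2, beside 53.9 and 51.5 in the flanks. CHD4 stood at 3.37 and 27.1, beside 47.2 and 55.4. Snf2h stood at 4.74 and 5.23, beside 48.9 and 52.8. The 6 cluster medians lay below all 6 flank medians. The difference averaged -40.7 ± 8.13 percentile points (SD, n = 6; exact sign-flip permutation p = 0.03125, adjusted 0.03125) and was negative in 6 of 6 libraries.

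As deposited, Brg1 had a median maximum tag density of 5.21 and 2.37 in the cluster, beside 16.2 and 3.48 in the flanks. CHD4 had 4.16 and 2.72, beside 13.5 and 3.71, and Snf2h 4.85 and 2.84, beside 13.9 and 11.1. These densities are on each list's own scale and are not compared between lists. The tallest 10% of the lists took 1 hotspot from the cluster, in Brg1 replicate 2, and 0 in each of the other 5 lists. At the other end, the lowest 10% of each list held 68.9% and 18.3% of the cluster's Brg1 hotspots, 96.8% and 32.7% of its CHD4 hotspots, and 66.1% and 65.5% of its Snf2h hotspots.

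**Figure D2:**
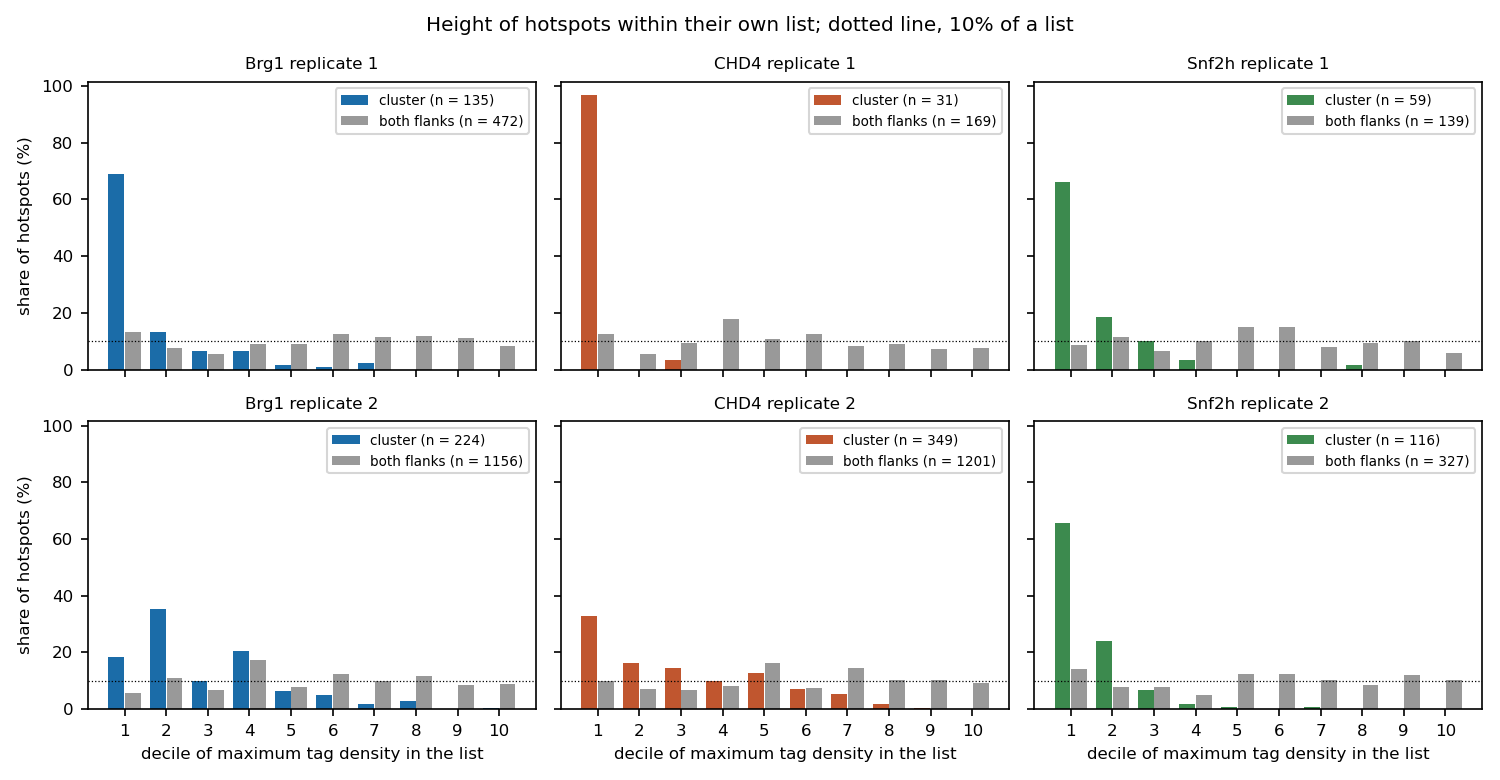
Share of hotspots (y axis, %) in each decile of maximum tag density of its own list (x axis) for the cluster (coloured) and both flanks (grey), 1 panel per library. The cluster's hotspots gather in the low deciles, with 96.8% of CHD4 replicate 1 in the lowest, while the flanks lie near the dotted line at 10%.

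The lower height held for maximum and average tag density but not for the deposited Z score. Ranked by average density, the difference was -32.1 percentile points (exact sign-flip permutation p = 0.03125). Ranked by Z score it was -0.494, lower in 4 of 6 libraries (exact sign-flip permutation p = 0.969). Replicates 2 of Brg1 and CHD4 went the other way, with a median Z score percentile of 70.1 in the cluster and 52.2 in the flanks for Brg1, and of 70.4 and 51.3 for CHD4. In the other 4 libraries the cluster was lower, at 46.4 and 50.1 for Brg1 replicate 1, 31.9 and 49.6 for CHD4 replicate 1, 40.2 and 47.8 for Snf2h replicate 1, and 40.5 and 51.3 for Snf2h replicate 2. The scaling of the Z score is not stated in the sources at hand.

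**Figure D3:**
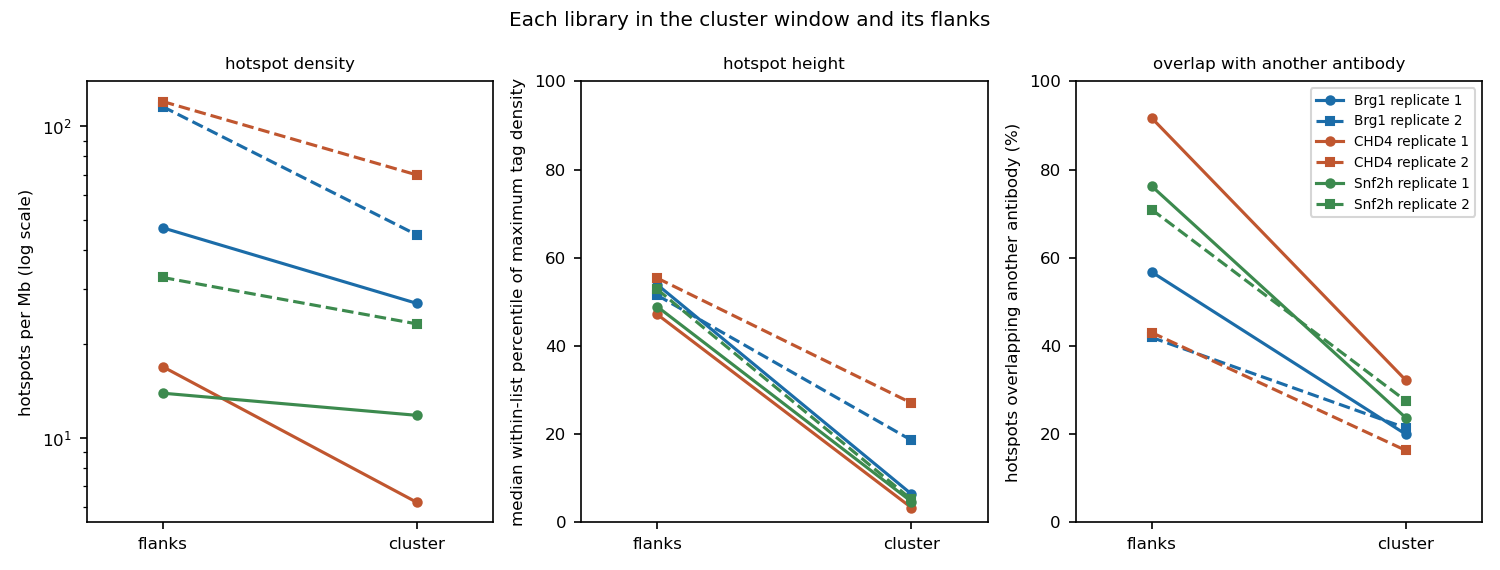
Each library (line) in the flanks and in the cluster, as hotspots per Mb (left, log scale), median height percentile by maximum tag density (middle) and percent of hotspots overlapping another antibody (right). All 6 lines fall from flanks to cluster in each panel, and height separates the groups fully.

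Hotspots of the cluster were seldom shared between antibodies. Of the Brg1 hotspots 20.0% and 21.4% overlapped a CHD4 or Snf2h hotspot by at least 1 bp, beside 56.8% and 42.0% in the flanks. The shares were 32.3% and 16.3% for CHD4, beside 91.7% and 43.0%, and 23.7% and 27.6% for Snf2h, beside 76.3% and 70.9%. All 6 cluster shares lay below all 6 flank shares, with a mean difference of -39.9 ± 14.9 percentage points (SD, n = 6; exact sign-flip permutation p = 0.03125, adjusted 0.03125). The largest pairwise overlap in the window by number was between Brg1 replicate 2 and CHD4 replicate 2, the 2 longest lists, with 38 of the 224 Brg1 hotspots (17.0%, against 38.6% in the flanks).

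Paired libraries of 1 antibody also coincided less. In Brg1 replicate 1, 9.63% of cluster hotspots overlapped one of replicate 2, against 52.8% in the flanks, and in the reverse direction 6.25% against 19.5%. For CHD4 the shares were 22.6% and 1.72%, against 82.2% and 10.7%, and for Snf2h 16.9% and 8.62%, against 56.1% and 23.5%. The difference averaged -29.8 ± 20.4 percentage points, lower in 6 of 6 libraries (SD, n = 6; exact sign-flip permutation p = 0.03125, adjusted 0.03125). A window with fewer and narrower hotspots offers fewer chances of overlap, and the part of density and width in these shares was not tested.

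Even the shared hotspots of the cluster were low. Brg1 hotspots that overlapped another antibody had median height percentiles of 8.83 and 21.6 in the cluster, beside 71.1 and 74.1 in the flanks. For CHD4 they were 4.91 and 27.1, beside 49.1 and 74.5, and for Snf2h 9.68 and 10.2, beside 55.7 and 62.8. In the median they lay below the unshared hotspots of the flanks in 5 of the 6 libraries, the exception being CHD4 replicate 1, whose unshared flank hotspots had a median of 4.37.

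Counted as merged regions, most of the cluster belonged to a single list. Of the 787 regions 698, or 88.7% (95% Wilson interval 86.3 to 90.7, counting error only), held a hotspot of 1 list, beside 75.1% in the flanks and 76.6% of all regions in the series. Only 18 regions (2.29%) were in 3 or more lists, beside 250 (11.4%) in the flanks and 10.7% over the series. The single-list regions came mainly from the longest lists, as they did over the series. CHD4 replicate 2 alone held 289 (36.7% of cluster regions, beside 33.6% over the series). Brg1 replicate 2 alone held 168 (21.3%, beside 27.2%).

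**Figure D4:**
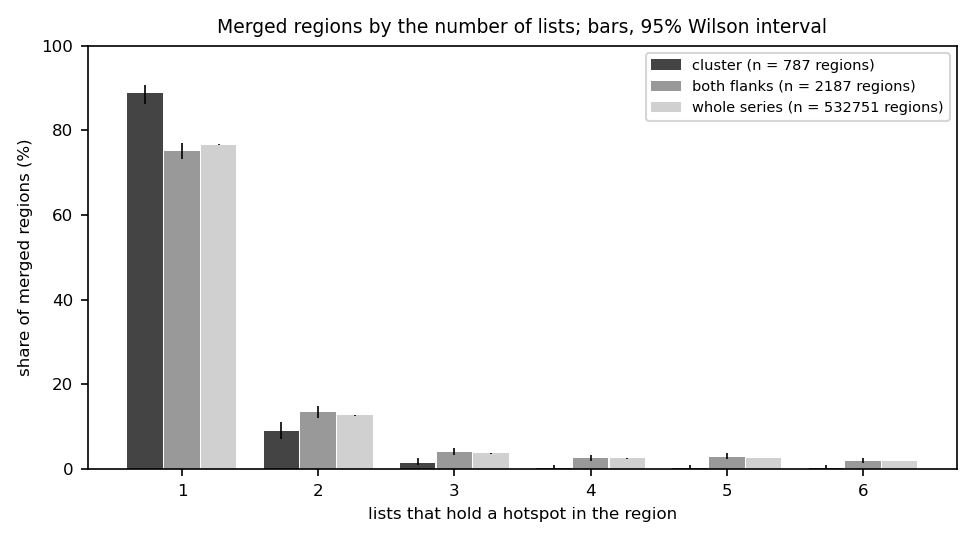
Share of merged regions (y axis, %) by the number of lists that hold a hotspot there (x axis), for the cluster, both flanks and the whole series. Bars are 95% Wilson intervals, and the cluster has more regions in 1 list (88.7%) and fewer in every other class.

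By remodeler, 341 cluster regions (43.3%) held a Brg1 hotspot of either library, 371 (47.1%) a CHD4 hotspot and 163 (20.7%) a Snf2h hotspot. The flank shares were 61.3% for Brg1, 53.7% for CHD4 and 16.6% for Snf2h, and the series shares 58.3%, 54.3% and 16.4%. Snf2h was thus the remodeler with a larger share of regions here than in the flanks. Per Mb, regions with a Snf2h hotspot were still fewer, at 32.6 in the cluster beside 36.2 in the flanks. Regions with Snf2h and neither of the others numbered 126 (25.2 per Mb), or 16.0% of the cluster, beside 5.85% of the flanks (12.8 per Mb) and 6.25% of the series. These shares are counts over regions of few libraries and carry no test.

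Regions found in both libraries of an antibody are the more reliable ones, and they were few. The cluster held 15 for Brg1, or 1.91% of its regions, beside 9.79% in the flanks and 9.6% over the series. For CHD4 it held 6 (0.762%), beside 5.67% and 5.65%, and for Snf2h 10 (1.27%), beside 3.43% and 3.39%. In all, 24 regions (3.05%) were replicated for at least 1 remodeler, beside 11.4% and 11.5%. A hotspot of all 3 remodelers, in any library, was present in 12 regions (1.52%), beside 7.77% and 7.42%. Replicated hotspots of all 3 were in 2 regions (0.254%), beside 41 (1.87%) in the flanks and 1.96% over the series. With only hotspots at or above the common Z score of 9.49, the 24 regions became 10 and these 2 became 1.

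Of the 24 replicated regions, 11 were replicated for Brg1 alone, 3 for CHD4 alone, 5 for Snf2h alone, 2 for Brg1 and Snf2h, 1 for CHD4 and Snf2h, and 2 for all 3. Regions replicated for Snf2h alone made up 0.635% of the cluster, nearly the same as in the flanks (0.640%) and the series (0.633%). Those for CHD4 alone were 0.381%, beside 0.503% and 0.858%, and those for Brg1 alone 1.40%, beside 4.71% and 4.81%. None was replicated for Brg1 and CHD4 without Snf2h, a class with 61 regions (2.79%) in the flanks and 2.43% over the series. By a floor of 3 counts, 0 of 787 allows a share of up to 0.381%, and the upper 95% Wilson limit is 0.486%. Mean height percentile over the 6 lists, counting an absent hotspot as 0, ran from 0.666 to 49.9 with a median of 6.85. None of the 24 passed 50, whereas 127 of the 250 replicated regions in the flanks (50.8%) did. By this measure a region in 3 or fewer lists cannot pass 50, so the contrast holds list sharing as well as height. Over only the lists with a hotspot there, the highest region, chr2:85086516-85087125, averaged 59.9. Replicated regions of the cluster had a median width of 653.5 bp, beside 983 bp in the flanks.

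**Figure D5:**
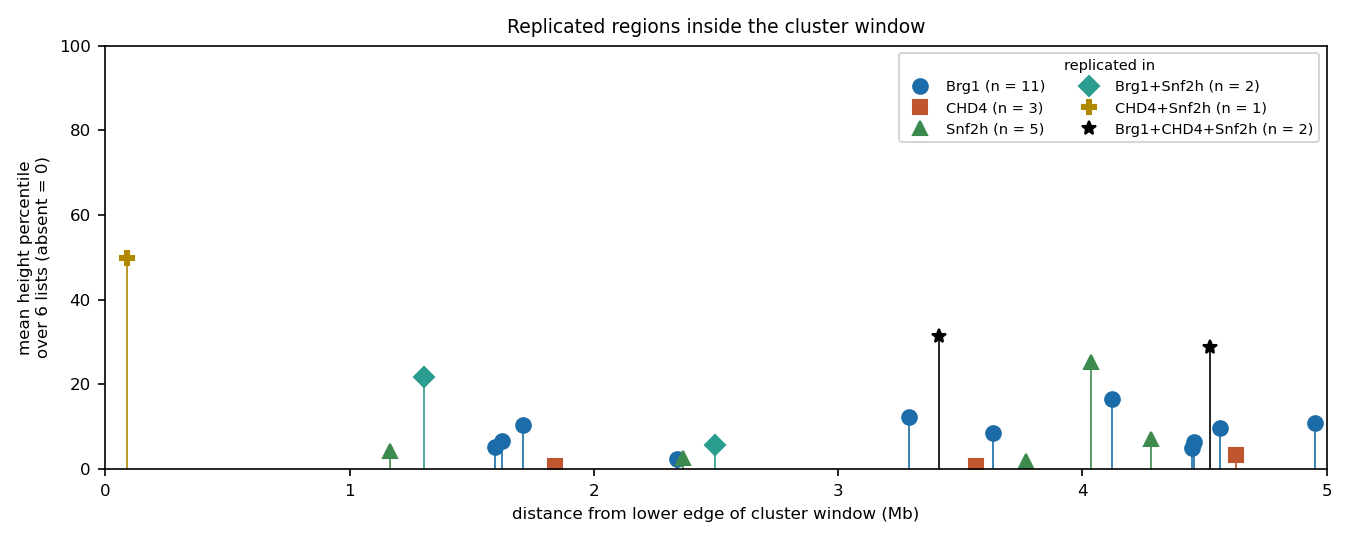
The 24 replicated regions by distance from the lower edge of the window in Mb (x axis) and mean height percentile over the 6 lists (y axis, absent counted as 0), with symbols for the remodelers replicated there. The region nearest the lower edge is the tallest at 49.9, and the other regions lie at or below 31.3.

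The regions shared by most lists are given with their maximum tag densities, which are the authors' values on each list's own scale. The tallest, chr2:85086516-85087125, lay near the lower edge and was in 5 lists. It reached 9.71 and 3.71 in CHD4, 20.1 and 14.7 in Snf2h and 7.12 in Brg1 replicate 2, and had no hotspot in Brg1 replicate 1. Its Snf2h values stood at percentiles 75.0 and 64.5 of their lists, and no other cluster hotspot of either Snf2h list was taller. Just beside it, a Brg1 replicate 2 hotspot at chr2:85085538-85086198 stood at percentile 90.8 and was the single cluster hotspot in the top 10% of any list.

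The 2 regions with replicated hotspots of all 3 remodelers lay deeper in the window. The first, chr2:88411702-88414249, was 2548 bp wide and reached 3.47 and 3.95 in Brg1, 6.24 and 5.44 in CHD4, and 6.23 and 5.67 in Snf2h. The other, chr2:89521255-89522094, was 840 bp wide and reached 8.69 and 6.01, 4.16 and 2.97, and 4.85 and 6.38. Their mean percentiles were 31.3 and 28.9. By the same measure the tallest flank region, chr2:90908039-90911646, stood at 97.8, with densities of 158 and 37.3 in Brg1, 50.6 and 28.4 in CHD4, and 30.5 and 77.3 in Snf2h. In each of the 6 lists its value was above those of both cluster regions.

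Other regions held hotspots of several remodelers but were not replicated for all. At chr2:86304455-86305222, replicated for Brg1 and Snf2h, Brg1 reached 13.9 and 2.85 and Snf2h 11.1 and 3.78, with CHD4 at 2.77 in replicate 1 and no hotspot in replicate 2. At chr2:89036493-89037600, replicated for Snf2h alone, Snf2h reached 6.23 and 4.02, percentiles 11.56 and 14.98 of its lists. Replicates 2 of Brg1 (4.27) and CHD4 (3.95) were also present there, at the higher percentiles of 64.04 and 60.50. Among regions replicated for Brg1 alone, chr2:89122439-89123261 and chr2:89950602-89951085 both reached 18.5 in replicate 1, percentile 60.2, but only 2.21 and 2.06 in replicate 2. The paired Brg1 libraries therefore ranked these regions far apart, since 2.21 and 2.06 are at percentiles 12.3 and 5.65 of their list.

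The regions replicated for CHD4 alone had the lowest mean percentiles of the named ones, 3.34, 0.785 and 0.666. All of that class were named, but only the 3 highest for Brg1 alone and Snf2h alone. Unnamed regions reached down to 2.41 for Brg1 alone and 1.79 for Snf2h alone. Those of CHD4 alone lay at chr2:89630740-89631144 (3.47 and 2.47), chr2:88563112-88563400 (3.81 and 1.98) and chr2:86840621-86841206 (3.47 and 1.98). For Snf2h alone, chr2:89279806-89280498 reached 8.31 and 4.49 and chr2:86165614-86166249 reached 8.31 and 2.60. Some of the 10 cluster regions of highest mean percentile were not replicated at all. One was chr2:89693743-89694437 (mean percentile 18.6), present in 1 library of each remodeler. Others were chr2:85047298-85047708 (16.6), chr2:89335848-89336433 (16.6) and chr2:89413024-89413548 (16.5), each present only in Brg1 replicate 2 and CHD4 replicate 2.

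Along the window, hotspots were spread thinly rather than absent. Over all 6 lists, each of the 10 bins of 500 kb held 77 to 104 hotspots, and every bin of 100 kb held at least 10. The median distance between neighbouring hotspots was 2.40 kb in the cluster, 0.904 kb in the lower flank and 0.287 kb in the upper flank. The longest stretch without a hotspot of any list was 64.8 kb, chr2:87376638-87441408. In single lists the empty stretches were longer, up to 614 kb in CHD4 replicate 1, where 25 of the 50 bins of 100 kb were empty.

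Between bins of 500 kb the lower edge showed a large drop. The last 500 kb of the lower flank held 270 hotspots over all lists and the first 500 kb of the cluster 101, and the mean over lists of the median height percentile went from 64.5 to 21.3. In bins of 100 kb the drop in count came inside the window. The last bin of the flank held 43 hotspots, the first of the cluster 41, and each of the next 4 bins 11 to 20. Median height percentile was 49.5 in that flank bin, 28.1 in the first 100 kb of the cluster and 9.04 in the next bin. The tallest hotspot of 5 of the 6 lists lay in that first 100 kb, between 63.6 and 86.6 kb from the edge, and the exception was CHD4 replicate 2. Whether these tallest hotspots lie among the receptor genes or outside them was not tested. Across the central 3 Mb the tallest Brg1 hotspots stood at percentiles 46.0 and 59.9, the tallest CHD4 hotspots at 9.78 and 81.9, and the tallest Snf2h hotspots at 35.7 and 26.6.

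At the upper edge the low stretch ran on for a short distance. The last 500 kb of the cluster had a mean height percentile of 7.79. The next 3 bins of 100 kb, from 90 to 90.3 Mb and outside both window and flank, held 4, 13 and 3 hotspots. From 90.3 to 90.4 Mb there were 49, with a median percentile of 82.2 and 14 hotspots in the top 10% of their lists.

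Low density, low height and little sharing were not particular to the cluster. Against the lower flank alone the mean log2 density ratio was -0.55 and the height difference -21.2 percentile points, and against the upper flank alone -1.10 and -47.6 (exact sign-flip permutation p = 0.03125 for each). Snf2h density was nearly level with the lower flank, at 59 cluster hotspots beside 61 in replicate 1 (96.7%) and 116 beside 131 in replicate 2 (88.5%). Of the 20 flank bins of 500 kb, 8 had a mean height percentile within the cluster's upper limit of 21.3, and 6 of these also had no more hotspots than the fullest cluster bin, 104. The 8 bins formed 2 runs, from 80.5 to 83.5 Mb and from 94.5 to 95.5 Mb, identified after their values were seen and so not tested. In the first run, Brg1 had 28.3 and 59.0 hotspots per Mb at median height percentiles of 8.83 and 24.6. CHD4 had 5.33 and 76.3 per Mb at 4.37 and 27.1, and Snf2h 10.3 and 20.3 per Mb at 15.3 and 7.23. All 6 of these heights are below the medians of the whole flanks, and Snf2h density there was below the cluster's 11.8 and 23.2. Overlap with another antibody in this run was 21.2% and 22.0% for the Brg1 lists, 31.3% and 18.8% for the CHD4 lists, and 19.4% and 29.5% for the Snf2h lists. These shares are near the cluster's own 20.0% and 21.4%, 32.3% and 16.3%, and 23.7% and 27.6%.

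Against 5 Mb tiles of all 19 autosomes, 467 tiles in all, the window stood low for Brg1 and CHD4 density and was ordinary for 1 Snf2h library. Ranked from the lowest count, Brg1 placed it at 23 and 13, CHD4 at 41 and 17, and Snf2h at 225 and 70. The median tile held 59 hotspots of Snf2h replicate 1, the same number as the cluster, and 148 of replicate 2, where the cluster had 116. By median height, Brg1 placed the window at 3 and 1 from the lowest, CHD4 at 3 and 17, and Snf2h at 1 and 3. Ranks over tiles describe this window and are no test.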

How the data were processed

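Hotspot lists were deposited per library; reads had been processed with CASAVA 1.6 on build mm9, per the submitters' processing notes. No source at hand names the hotspot caller, its thresholds or any use of the inputs. The deposited maximum and average tag density are signal values, the deposited Z score is a score, and the deposited p-value was not used. Densities were compared only as percentiles within a list. Hotspots were placed by their start and merged at 1 bp or more of overlap. A merged region was called replicated where both libraries of an antibody had a hotspot in it, overlapping each other or not. No label gives a batch. Each library's window was compared with its own flanks by an exact sign-flip permutation test over 6 libraries (64 sign patterns, 6 tests, Benjamini-Hochberg). The density measure was checked on simulated lists of randomly placed hotspots, where a planted density ratio of 0.5 was recovered as 0.506. The permutation test was not run on those lists. Named regions were those replicated for all 3 remodelers, the 10 of highest mean percentile, the 3 highest replicated for each remodeler alone and the 3 highest in the flanks. The window, lists and tests were chosen with earlier results of these data known. Alternatives were a common Z score of 9.49, lists shortened to 32310 hotspots, the tallest 50% of each list, 50% overlap, other heights, single flanks, the central 3 Mb and leaving out each library. Python 3.11.15, numpy 2.4.6, pandas 2.3.3, scipy 1.17.1 and matplotlib 3.10.9 were used.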

Additional observations from a re-analysis of the deposited data

How the results depend on the processing

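The 6 tested measures kept their direction under 88 alternatives, and 43 of these no longer reached 0.05. All but 1 of the 43 could not, since leaving out a library allows no exact p below 0.0625 and averaging each antibody none below 0.25. Without 1 library in turn, density ran from -0.98 to -0.74, covered length from -1.46 to -1.17, height from -43.2 to -39.3, width from -0.41 to -0.32, overlap with another antibody from -43.8 to -36.0 and with the same antibody from -34.0 to -23.9. Averaged per antibody the values stayed -0.86, -1.30, -40.7, -0.36, -39.9 and -29.8. Height ranked by Z score fell to -0.49, and the cause was not tested. Against the lower flank alone density was -0.55, height -21.2 and overlap with another antibody -28.1, and against the upper flank -1.10, -47.6 and -48.1. Shortening lists to 32310 hotspots left 0 and 1 hotspots of Brg1, 1 and 0 of CHD4, and 59 and 1 of Snf2h in the cluster, beside 133 and 129, 139 and 131, and 139 and 135 in the flanks, so the 6 measures could not be computed. The first Snf2h list is whole under that setting. The tallest 50% of each list held 4 and 22, 0 and 71, and 1 and 1 cluster hotspots, and the measures were not computed there either. The range between antibody means, 0.749, was also set in a replicate block, where each pair holds 1 library of each replicate number. The exact one-sided enumeration within the block gave the variance of the means a p of 0.5, where 0.167 is the smallest. Leaving out each library, added after seeing the data, gave ranges from 0.620 to 1.08. Replicated regions numbered 15 for Brg1, 6 for CHD4, 10 for Snf2h, 24 for any and 2 for all 3. At the common Z score these were 4, 1, 8, 10 and 1, with lists of equal length 0, 0, 1, 1 and 0, in the central 3 Mb 9, 3, 6, 14 and 1, and with either library enough 341, 371, 163, 787 and 12. With merging at 50% overlap these were 11, 5, 9, 20 and 1. Without 1 library, where the other alone counts, Brg1 ran from 14 to 222, CHD4 from 6 to 347, Snf2h from 10 to 115, any from 46 to 361 and all 3 from 2 to 3. Unknown tag depth limits every height, and small counts limit CHD4 replicate 1, with 31 hotspots.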

Other observations

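Between the window and the upper flank, the 500 kb from 90 to 90.5 Mb belongs to neither. It held 22 and 38 Brg1 hotspots in replicates 1 and 2, 11 and 31 CHD4 hotspots, and 8 and 15 Snf2h hotspots. Their median height percentiles were 74.0 and 79.8, 67.7 and 83.2, and 61.9 and 75.4, above the cluster's in all 6 lists.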
